A study of Oryza sativa with 16 samples.

Results

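Rice seedlings kept for 3 h in 100 µM abscisic acid (ABA) were compared directly with seedlings kept for 3 h in 100 µM salicylic acid (SA). The comparison used the 2 ABA arrays and the 2 SA arrays, 4 of the 16 arrays of the series, and these were chosen by their hormone label alone. Each difference is ABA minus SA on the log2 scale, so that a positive value means a higher level in ABA and 1 unit is a 2-fold difference. A pair of arrays of water-treated seedlings, called control2, is given only to say which of the hormones lay apart from water and whether both moved the same way by different amounts.

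The plants were Oryza sativa subspecies indica of the variety IR64, with no transgene or mutation given in the labels. They were raised in hydroponic culture for 7 days with 14 h of light and 10 h of dark, and RNA of the seedlings was hybridized to the Affymetrix rice array, which reads each gene with 1 or more probe sets. ABA, SA and control2 each had 2 arrays, described by the submitters as biological replicates. The other arrays held a second water set (control1) and seedlings given the auxin IAA, the cytokinin BAP, the ethylene precursor ACC or jasmonic acid (JA), and served here to estimate the spread between replicates, to set the filter on low values and to choose the probe set of each gene. Control1 was also used as another water set beside control2.

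ABA accumulates in plants during drought, salt stress and seed maturation. When it binds its receptors, protein phosphatases 2C of clade A release SnRK2 kinases, which activate bZIP factors and, through them, genes for protective late embryogenesis abundant (LEA) proteins. SA is the hormone of defence against pathogens that feed on living tissue, and it acts through coactivators of the NPR1 family, TGA bZIP factors and, in rice, WRKY factors. In rice ABA is known to weaken SA-dependent defence.

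The ABA and SA arrays differed at many of the measured probe sets. Of 24100 probe sets above log2 5 in at least 2 of the 16 arrays, 8804 (36.5%) differed with an adjusted p under 0.05 (limma, Benjamini-Hochberg, two-sided), 3831 (15.9%) being higher in ABA and 4973 (20.6%) lower in ABA. With a 2-fold minimum added, 3940 (16.3%) remained, of which 1978 (8.21%) were higher and 1962 (8.14%) lower. Differences of 8-fold or more were called at 395 probe sets higher in ABA and at 150 lower in ABA, together 2.26% of those tested. At 17727 probe sets (73.6%) both ABA arrays lay on one side of both SA arrays, so such a separation by itself is common here. The median difference over all tested probe sets was -0.07 and the median size was 0.35. The called share is the background against which each gene list below is to be read.

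Replicates lay close to each other. Across the tested probe sets the Pearson correlation was 0.990 between the ABA arrays and 0.989 between the SA arrays, and it lay between 0.899 and 0.914 for an ABA array with an SA array. The array medians over the tested probe sets were 9.03 to 9.07 in ABA and SA. The spike-in controls, RNAs added in the laboratory, set the hormones apart too. The 27 hybridization controls averaged 10.46 and 10.47 in the ABA arrays, 11.07 and 11.75 in the SA arrays and 11.32 and 12.36 in the control2 arrays. The 36 poly-A controls averaged 10.73 in both ABA arrays, 10.0 in both SA arrays, and 9.39 and 10.62 in the control2 arrays. Laboratory handling and hormone therefore cannot be told apart for ABA and SA, and the part of handling in the differences was not tested. Markers of shoot and root were both present: CAB2R, a light-harvesting chlorophyll protein, had log2 values of 15.70 and 15.74 in ABA and 15.95 and 15.93 in SA, and the root silicon channel Lsi1 had 11.10 and 11.27 in ABA and 11.60 and 13.08 in SA. The labels name seedlings and no organ, and in such bulk samples fewer cells of a type and less RNA per cell cannot be told apart.

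Set against control2, ABA alone lay apart far more often than SA alone, and at many called probe sets neither hormone did. A hormone is said here to lie apart from control2 where its difference had an adjusted p under 0.05 and was 2-fold or more, which held for ABA at 5528 probe sets (22.9%) and for SA at 1018 (4.22%). Among the 3831 probe sets higher in ABA than in SA, ABA alone lay apart at 2092 (54.6%) and SA alone at 36. Among the 4973 lower in ABA, ABA alone lay apart at 2085 (41.9%) and SA alone at 230. Both hormones moved the same way by different amounts at 127 probe sets higher and 209 lower in ABA, and in opposite directions at 11 higher and 36 lower. Neither lay apart from control2 by this rule at 1565 of those higher (40.9%) and 2413 of those lower (48.5%). The contrasts share the control2 arrays, so these counts describe the called probe sets and test no relation between the hormones. Both kinds of spike-in control lay outside the control2 range in the ABA arrays and overlapped it in the SA arrays. Handling and hormone therefore cannot be told apart in the larger count for ABA against control2 either. The number of probe sets where SA lay apart depended on single arrays: it was 537 without SA replicate 1 and 642 without control2 replicate 2, against 1018 with all arrays. With control1 in place of control2, ABA lay apart at 5865 probe sets (24.3%) and SA at 2253 (9.35%). SA alone then lay apart at 529 called probe sets and both hormones moved the same way at 562, against 266 and 336 with control2.

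**Figure D1:**
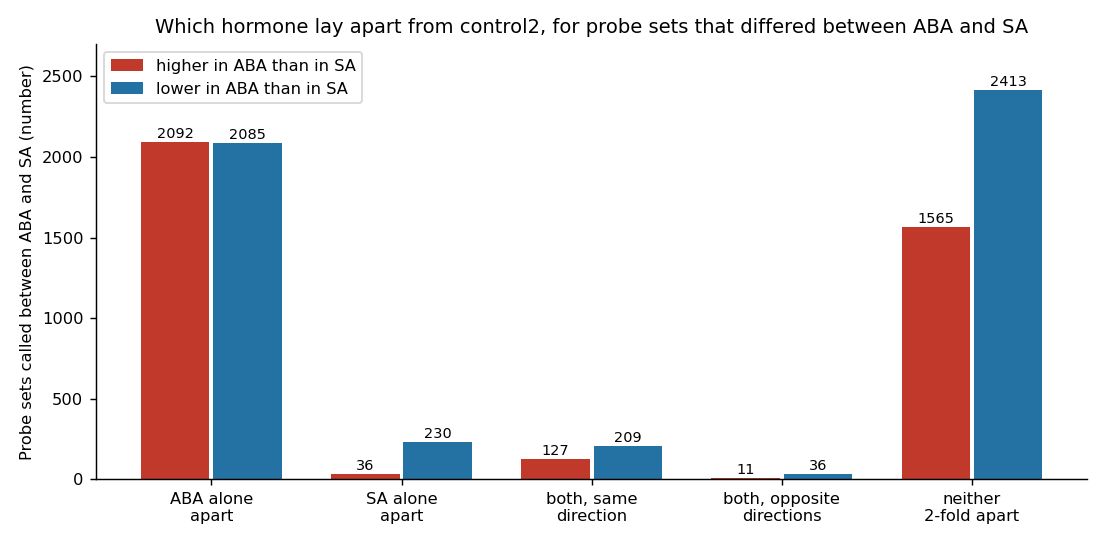
Number of probe sets called between ABA and SA, grouped by which hormone lay at least 2-fold from control2 (adjusted p under 0.05), with those higher in ABA than in SA in red and those lower in ABA in blue. ABA alone accounts for 2092 and 2085, and SA alone for 36 and 230.

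Named genes were drawn from probe sets with 1 gene that has a name. The rule took the 15 largest differences in each direction that were called, 2-fold or more and without overlap of the arrays, with the higher mean above log2 7. It added up to 5 members of each gene list and up to 8 genes of each class. Over all probe sets, named or not, differences reached 10.32 and -6.87. The 15 largest positive differences of named genes ran from 5.61 to 9.23 log2 units, and for 14 of these 15 genes ABA alone lay apart from control2. This class depended on the control set for some of them. Against control1, both hormones lay apart in opposite directions for SWEET15, HOX24 and the phosphatases PP2C30 and PP2C68, and in the same direction for LTP-2. SWEET15 (LOC4329464), a sugar efflux transporter, had 11.88 and 12.17 in ABA, 2.40 and 3.19 in SA and 2.38 and 2.74 in control2. Its SA values lay beside the control2 values and far below both ABA values, and the difference was 9.23 ± 0.61 (SE, adjusted p = 3.83e-07). The control1 mean of SWEET15 was 5.05, above both SA values. HOX24 (LOC4330155), a homeodomain-leucine zipper transcription factor, had 13.23 and 12.93 in ABA, 4.96 and 2.98 in SA and 2.87 and 2.68 in control2. The SA arrays differed from each other by more than the ABA arrays did, without reaching them, and the difference was 9.11 ± 0.58 (adjusted p = 3.03e-07). HOX24 too was higher in control1, at a mean of 8.57, than in SA. MFT1, of the family of flowering-time and dormancy regulators that includes MOTHER OF FT, had 11.57 and 11.81 in ABA, 5.71 and 5.79 in SA and 5.24 and 5.21 in control2. Its groups did not overlap, and the difference was 5.94 ± 0.33. Values near 3 lie at the median of all probe sets on an array (2.96 to 3.07 in ABA and SA), so that folds over such genes depend on the background correction. Several of the 15 are known from maturing seeds, among them the 1-Cys peroxiredoxin R1C-Prx, the tonoplast aquaporin OsTIP3;2 and rab25. OsTIP3;2 had 8.22 and 8.72 in ABA, 2.57 and 2.56 in SA and 2.42 and 2.59 in control2, so that SA and control2 were alike at the bottom of the scale.

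**Figure D2:**
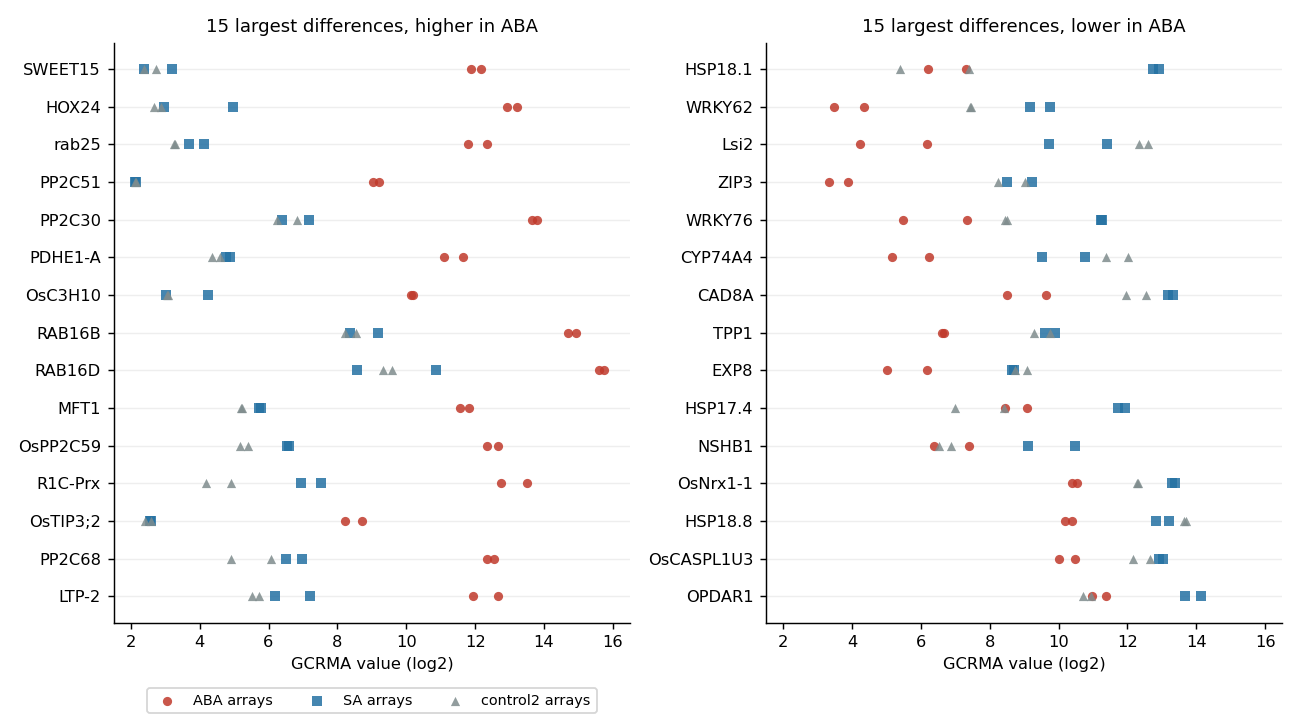
Log2 values of the 15 genes with the largest differences higher in ABA (left) and lower in ABA (right), each array a point, with ABA in red, SA in blue and control2 in grey. On the left the SA points lie near the control2 points for most genes, with R1C-Prx as the widest exception, and on the right either hormone may stand apart from control2.

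Within the ABA signal path the phosphatases and bZIP factors were higher in ABA, the kinases were mixed and the receptor was lower. All 7 tested clade A protein phosphatases 2C, which switch the pathway off in feedback, were higher in ABA than in SA, with a median difference of 5.29. PP2C51 (LOC4339671) had 9.03 and 9.21 in ABA, 2.13 and 2.16 in SA and 2.12 and 2.15 in control2. SA and control2 did not differ there beyond 0.01 units, while ABA exceeded SA by 6.97 ± 0.17 (adjusted p = 1.35e-10), and a second probe set of this gene gave 4.30. PP2C30 (LOC4332374) had 13.80 and 13.66 in ABA, 7.18 and 6.41 in SA and 6.82 and 6.23 in control2, a difference of 6.94 ± 0.42. ABIL1 (LOC4324201) and OsPP2C09 (LOC4327465) differed less, and both were also higher in SA than in water. OsPP2C09 had 12.62 and 12.41 in ABA, 9.93 and 9.30 in SA and 7.87 and 7.81 in control2, so that the 3 groups stood in that order with no overlap. It exceeded control2 by 4.68 in ABA and 1.78 in SA, while ABIL1 exceeded it by 4.52 and 1.38, with ABIL1 losing the 2-fold call for SA without SA replicate 1 and without control2 replicate 2. With control1 in place of control2 the SA call was lost for both ABIL1 and OsPP2C09. For PP2C30, SA then lay apart below control1 and ABA above it.

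Of the 10 SnRK2 kinases tested, 4 were higher and 3 lower in ABA, a smaller response than that of the phosphatases that bind them. SAPK1 (LOC4333017) had 12.12 and 12.31 in ABA, 10.45 and 10.39 in SA and 9.56 and 9.40 in control2, and differed by 1.79 ± 0.15. SAPK10 differed by 1.54 ± 0.19, whereas sapk2 was lower in ABA by -0.86 ± 0.15. Without ABA replicate 2 or SA replicate 2, 1 kinase was called lower. Both tested ABA-responsive bZIP factors were higher in ABA, ABF2 by 2.27 ± 0.19 and TRAB1 by 1.65 ± 0.14. The receptor PYL11, the only tested member of its list, had 9.80 and 9.98 in ABA, 10.96 in both SA arrays and 10.94 and 11.05 in control2. It was thus lower in ABA by -1.07 ± 0.13 (adjusted p = 7.03e-05), with SA at the level of water. ABA 8'-hydroxylases, which break ABA down, were higher in ABA. ABA8OX2 (LOC4345810) had 14.50 and 14.24 in ABA, 11.44 and 10.49 in SA and 9.41 and 9.45 in control2, and ABA8OX1 differed by 2.85 ± 0.20. ABA8OX2 stood above water in SA too, by 1.53, but by less than the 4.94 seen in ABA. Against control1 the SA side was not called at 2-fold.

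All 9 tested LEA and dehydrin genes were higher in ABA than in SA, by a median of 3.74, and ABA alone lay apart from control2 for each. The place of SA depended on the control set: against control1 the median was 8.14 in ABA and 2.10 in SA, and SA also lay apart for RAB16C and RAB21. Without any 1 of the 4 arrays, 7 of the 9 were called. The dehydrin rab25 (LOC4326935) had 11.79 and 12.35 in ABA, 3.70 and 4.14 in SA and 3.27 and 3.28 in control2. It differed by 8.15 ± 0.32 (adjusted p = 4.92e-09), with SA and water near the bottom of the scale. RAB16B (LOC4350453), a dehydrin of the RAB16 cluster, had 14.70 and 14.94 in ABA, 8.38 and 9.18 in SA and 8.55 and 8.23 in control2. RAB16D (LOC4350451) had 15.61 and 15.74 in ABA, 8.56 and 10.88 in SA and 9.31 and 9.59 in control2. The SA arrays thus lay on either side of water for RAB16D, and the difference of 5.96 ± 1.14 had the larger error. RAB21 differed by 3.74 ± 1.23 (adjusted p = 0.0327), a call lost without any 1 of the 4 arrays (adjusted p between 0.0681 and 0.153), without the filter on low values (0.0881) and with the control sets pooled (0.187). RAB21 also no longer lay apart from control2 in ABA when any 1 of the ABA, SA and control2 arrays was left out. RAB16D, RAB16C, RAB16B and RAB21 lie near each other in the RefSeq gene order, and whether their probe sets also bind transcripts of related genes was not tested.

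Transcription factors of the homeodomain-leucine zipper family split by member. Of 23 tested, 9 were higher and 7 lower in ABA, with 4 to 5 lower calls made when an array was left out. HOX7 had 10.75 and 10.89 in ABA, 6.07 and 6.08 in SA and 6.05 and 5.91 in control2. Its replicates were nearly equal, and the difference was 4.75 ± 0.14 (adjusted p = 6.02e-10). Hox22, which like HOX24 is known from drought responses of rice, differed by 4.60 ± 0.26, and hox29 by 2.64 ± 0.14. In contrast hox14 (LOC4343726) had 9.34 and 9.50 in ABA, 7.21 and 7.04 in SA and 8.52 and 8.48 in control2. SA was the hormone that lay 2-fold from control2 there, at -1.38, a call lost without either SA array or either control2 array. Against control1 it was ABA alone that lay apart for hox14. NAC2, of the NAC family, was higher in ABA by 4.0 ± 0.24, and NAC048 by 1.82 ± 0.24. NAC067 went the other way, with 11.92 and 11.88 in ABA, 13.55 and 13.08 in SA and 12.13 and 11.74 in control2. SA alone had raised it, by 1.38 over water, a class kept without each of the 6 ABA, SA and control2 arrays. The drought factor DREB2A differed by 1.71 ± 0.31. The cold factor DREB1A had 2.21 and 3.30 in ABA, 7.43 and 4.69 in SA and 3.33 and 2.85 in control2. Its SA arrays stood above the ABA and control2 arrays but far from each other. The difference of -3.30 ± 0.76 came to -1.93 without SA replicate 1. It lost its call with only the ABA and SA arrays in the fit (adjusted p = 0.06). Against control1, ABA alone lay apart for DREB1A.

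In SA signalling the NPR1 homologues were lower in ABA than in SA, while all but 1 of the TGA factors had no call. Of the 6 tested NPR1 homologues 5 were lower in ABA and none higher, with a median of -1.05, and the same count of 5 was reached without each array. NH3 (LOC4333666) had 7.49 and 7.65 in ABA, 9.54 and 9.09 in SA and 9.68 and 9.46 in control2. SA lay at the level of water there and ABA below both, by -1.75 ± 0.29 against SA (adjusted p = 0.00055). NH1 (LOC4327315), the rice NPR1 itself, had 8.54 and 8.14 in ABA, 9.74 and 9.43 in SA and 9.55 and 9.0 in control2. It differed by -1.24 ± 0.25, with neither hormone 2-fold from water. NH2 had 12.36 and 12.27 in ABA, 13.16 and 12.86 in SA and 12.08 and 12.22 in control2. Here SA stood above the others, and the difference was -0.69 ± 0.12. Of 11 TGA factors only TGAL4 was called, at -1.90 ± 0.30, with 7.78 and 6.99 in ABA, 9.36 and 9.21 in SA and 8.95 and 8.67 in control2.

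WRKY62 and WRKY76, transcription factors that restrain pathogen defence in rice, were among the few genes that the hormones moved in opposite directions. WRKY62 (LOC4347070) had 3.46 and 4.34 in ABA, 9.76 and 9.16 in SA and 7.47 and 7.44 in control2. Its water values lay between those of the hormones with no overlap, ABA being lower than water by -3.55 and SA higher by 2.01. The direct difference was -5.56 ± 0.33 (adjusted p = 1.48e-07), and the opposite directions were called without each of the 6 arrays and with control1. WRKY76 (LOC4347069) had 5.49 and 7.33 in ABA, 11.27 and 11.23 in SA and 8.49 and 8.45 in control2. It differed by -4.84 ± 0.66 (adjusted p = 0.000128), in the same order of groups, but the opposite directions against water were not called without ABA replicate 1, either SA array or either control2 array, nor with control1. WRKY76 and WRKY62 are adjacent in the RefSeq gene order. Of the 6 tested WRKY factors, 3 were lower and 1 higher in ABA, and the list held no call of a higher member when any 1 of the 4 arrays was left out.

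Pathogenesis-related proteins and chitinases were called at the share of all probe sets. Of 11 tested pathogenesis-related proteins and chitinases, 4 were lower and none higher in ABA (36.4% against 36.5% of all probe sets), with a median of -0.09. Leaving out 1 array gave 2 to 3 lower calls, with 2 lower without SA replicate 2, and 2 higher calls without ABA replicate 1. Cht10 had 7.86 and 7.96 in ABA, 9.05 and 9.15 in SA and 9.66 and 9.57 in control2, so that the chitinase was lower than water by -1.71 in ABA. Its call against SA (-1.19 ± 0.31) was lost without ABA replicate 1 or SA replicate 2 (adjusted p = 0.0507 and 0.0544) and with the control sets pooled (0.055). Of 13 genes of diterpenoid phytoalexin synthesis, 1 was called and 12 were not, which is 7.69% against 36.5% of all probe sets. That call was of a gene higher in ABA, and none was higher without ABA replicate 1 or SA replicate 1. In phenylpropanoid synthesis, the path to lignin and flavonoids, 5 of 13 genes were lower and 1 higher in ABA. CAD8A (LOC4346988), named for cinnamyl alcohol dehydrogenase, had 9.62 and 8.51 in ABA, 13.31 and 13.19 in SA and 12.54 and 11.95 in control2. Both hormones moved it, to either side of water, by -3.17 in ABA and 1.01 in SA. The direct difference was -4.18 ± 0.28 (adjusted p = 4.27e-07), while the SA side did not reach the 2-fold call without either SA array or without control2 replicate 2. OsNrx1-1 (LOC4333075), a nucleoredoxin, had 10.40 and 10.54 in ABA, 13.29 and 13.38 in SA and 12.29 and 12.28 in control2. Its opposite directions, -1.82 in ABA and 1.05 in SA, were called without each of the 6 arrays and with control1, and the direct difference was -2.87 ± 0.11. Of the 6 named genes in this class, these 2, OsNrx1-1 and WRKY62, kept it without each array.

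Genes of the jasmonate synthesis list were called lower in ABA than in SA more often than higher. Of 17 tested, 10 were lower and 1 higher, with a median of -0.96, and 6 lower calls were made without SA replicate 1. SA raised 3 neighbouring 12-oxophytodienoate reductases over water. OPDAR1 (LOC4340490) had 11.38 and 10.98 in ABA, 14.14 and 13.67 in SA and 10.71 and 10.95 in control2. ABA lay beside water and SA above both, by 3.07 over water, and the direct difference was -2.73 ± 0.21 (adjusted p = 1.22e-06). OPR5 (LOC4340485) had 12.25 and 11.19 in ABA, 14.76 and 14.08 in SA and 12.56 and 12.18 in control2, a difference of -2.70 ± 0.30. OPR10 (LOC4340486) had 10.52 and 10.16 in ABA, 13.17 and 12.28 in SA and 11.35 and 11.34 in control2, a difference of -2.38 ± 0.24. Its rise over water in SA was not called at 2-fold without SA replicate 1. The 3 genes lie within a few genes of each other in the RefSeq order, and shared probes were not tested. These reductases are counted in the list, but are not the one known to act in jasmonate synthesis in rice, which is OPR7. OPR7, named after its values were seen, had 5.80 and 5.79 in ABA, 5.80 and 5.83 in SA and 5.81 and 5.84 in control2, with no call between ABA and SA (-0.02 ± 0.23, adjusted p = 0.953).

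A pair of adjacent allene oxide synthase genes differed in opposite directions. CYP74A3 (LOC4328742) had 12.22 and 12.28 in ABA, 7.95 and 7.71 in SA and 6.73 and 5.74 in control2. CYP74A4 (LOC4328743), its neighbour, had 6.24 and 5.16 in ABA, 9.53 and 10.76 in SA and 12.03 and 11.39 in control2. In both genes SA lay between ABA and water with no overlap, on the same side of water as ABA. The direct differences were 4.42 ± 0.39 for CYP74A3 and -4.44 ± 0.41 for CYP74A4 (adjusted p = 4.04e-06 and 6.05e-06). The 2-fold calls of SA against water, 1.60 for CYP74A3 and -1.56 for CYP74A4, were lost for both without SA replicate 1, without control2 replicate 2 and with control1. JAZ repressors hold jasmonate responses back. Of 15 tested genes of their list, 6 were lower and 1 higher in ABA, but 1 lower call was made without ABA replicate 2 or without SA replicate 1. The list also holds TIFY2A and TIFY2B, which do not carry the JAZ name and were not called. JAR1, which joins jasmonate to isoleucine, had 8.87 and 9.14 in ABA, 10.75 and 10.78 in SA and 10.91 and 10.78 in control2. It was lower in ABA by -1.76 ± 0.13, with SA at the level of water. GH3.2, of the family that conjugates auxin to amino acids, had 9.88 and 10.07 in ABA, 12.73 and 11.79 in SA and 10.12 and 9.36 in control2. SA alone raised it over water, by 2.52, but not over control1.

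SA-raised genes outside the hormone pathways included detoxifying enzymes, haemoglobins and a sugar transporter. All 6 tested glutathione S-transferases were called, 5 lower and 1 higher in ABA, but 2 to 3 lower calls were made when an array was left out. GST1 (LOC4334347) had 12.35 and 12.70 in ABA, 13.82 and 13.85 in SA and 10.05 in both control2 arrays. Both hormones raised it, ABA by 2.48 and SA by 3.79, and the direct difference was -1.31 ± 0.27 (adjusted p = 0.00232). NSHB1 and NSHB2, nonsymbiotic haemoglobins that bind nitric oxide, were raised by SA over water. NSHB1 had 7.41 and 6.37 in ABA, 10.47 and 9.11 in SA and 6.88 and 6.52 in control2. NSHB2 had 8.96 and 8.06 in ABA, 11.69 and 10.58 in SA and 7.80 and 7.45 in control2. Their control1 means, 11.30 for NSHB1 and 12.40 for NSHB2, exceeded every SA value, so the rise over water held against control2 and not against control1. The direct differences were -2.90 ± 0.49 and -2.62 ± 0.45, and both calls were lost with the control sets pooled (adjusted p = 0.151 and 0.205). NSHB1 had 3 probe sets, with differences from -2.90 to -1.26, of which 2 were called lower in ABA. SWEET14 (LOC4350572), a sugar exporter used by rice leaf pathogens, had 10.06 and 9.59 in ABA, 11.77 and 11.17 in SA and 9.52 and 9.44 in control2. SA alone raised it, by 1.99, a class kept without each of the 6 arrays and with control1, and the direct difference was -1.64 ± 0.25. PHT1-8, a phosphate transporter, was raised by SA alone in the same way, with 11.39 and 11.40 in ABA, 12.80 and 13.14 in SA and 11.43 and 11.30 in control2.

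Heat shock genes divided between the hormones. Of 42 tested heat shock proteins and factors, 13 were higher and 10 lower in ABA, with a median of -0.07, near that of all probe sets. When the list was split by name into factors and chaperones, a split made after the values were seen, 9 of 20 heat shock factors were higher and 2 lower in ABA, whereas 4 of 22 chaperones were higher and 8 lower. HSP18.1 (LOC4332361), a small heat shock protein, had 7.08 and 8.28 in ABA, 13.47 and 13.57 in SA and 6.68 and 7.77 in control2 on its brighter probe set. ABA lay beside water and SA far above both, and the difference was -5.84 ± 0.47 (adjusted p = 1.83e-06), with -6.08 on a second probe set. HSP26.7 had 2.48 in both ABA arrays, 5.26 and 8.12 in SA and 2.49 and 2.52 in control2. ABA and water were at the bottom of the scale, and the difference of -4.21 ± 0.61 was -2.78 without SA replicate 2. HSP23.2 followed the same pattern, with 2.68 in both ABA arrays, 5.76 and 7.22 in SA and 2.66 and 2.71 in control2. HSP18.8 (LOC4343386) had 10.19 and 10.38 in ABA, 12.84 and 13.21 in SA and 13.65 and 13.71 in control2. It was ABA that lowered this one, by -3.39 against water. HSP17.4, HSP18.1 and HSP17.7 are adjacent in the RefSeq order, and were lower in ABA by -3.07, -5.84 and -1.80, the last named after its values were seen.

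The heat shock genes higher in ABA were led by HSP18.6 (LOC4330933), which had 12.61 and 13.11 in ABA, 7.45 and 8.49 in SA and 5.18 and 5.20 in control2. Both hormones raised it, by 7.67 in ABA and 2.78 in SA. HSFA6B (LOC4326351), a heat shock factor, had 12.41 and 12.55 in ABA, 8.17 and 7.80 in SA and 6.06 and 5.11 in control2. It was raised by 6.89 in ABA and 2.40 in SA, and the same class was called for HSP18.6 and HSFA6B without each of the 6 arrays and with control1. HSFC2A had 13.23 and 13.16 in ABA, 8.72 and 8.18 in SA and 8.12 and 7.89 in control2. Its difference was 4.75 ± 0.26, and ABA alone lay apart from control2. Against control1 both hormones lay apart, in opposite directions.

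**Figure D3:**
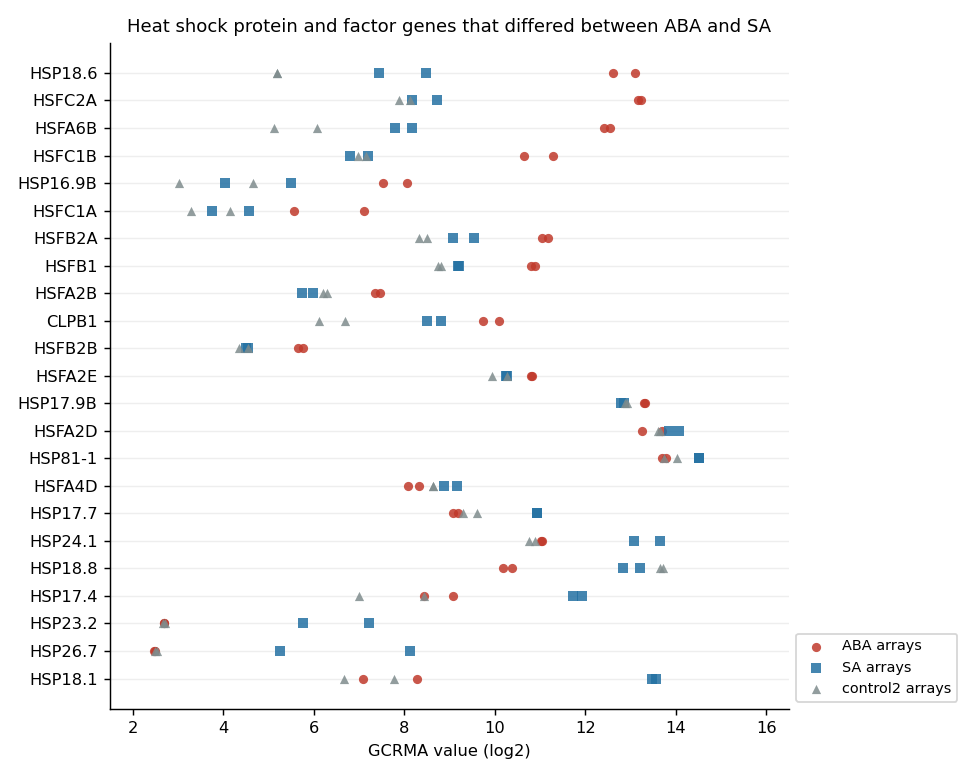
Log2 values of the 23 heat shock genes called between ABA and SA, ordered by their difference, each array a point, with ABA in red, SA in blue and control2 in grey. The upper genes are mostly heat shock factors with ABA to the right, and the lowest ones are small heat shock proteins with SA to the right.

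Where both hormones lay apart from control2 in the same direction, ABA had gone further at 30 of the 34 named genes called. These genes were picked largely by the size of their ABA minus SA difference. The same share was not counted over all 336 called probe sets of this class, so it need not hold there. Of these 34, 12 kept the class without each of the 6 arrays in turn and 15 kept it with control1. R1C-Prx, the 1-Cys peroxiredoxin, had 12.76 and 13.51 in ABA, 7.52 and 6.93 in SA and 4.19 and 4.92 in control2. It exceeded water by 8.58 in ABA and 2.67 in SA, and the direct difference was 5.91 ± 0.39 (adjusted p = 4.01e-07). The mitochondrial alternative oxidase AOX1 (LOC4336874) showed no difference that passed the test. It had 12.18 and 12.06 in ABA, 12.72 and 11.63 in SA and 10.34 and 9.94 in control2, so that the hormone groups overlapped and both stood above water, by 1.98 and 2.03. The direct difference was -0.06 ± 0.35 (adjusted p = 0.923), which does not show the hormones to act alike.

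**Figure D4:**
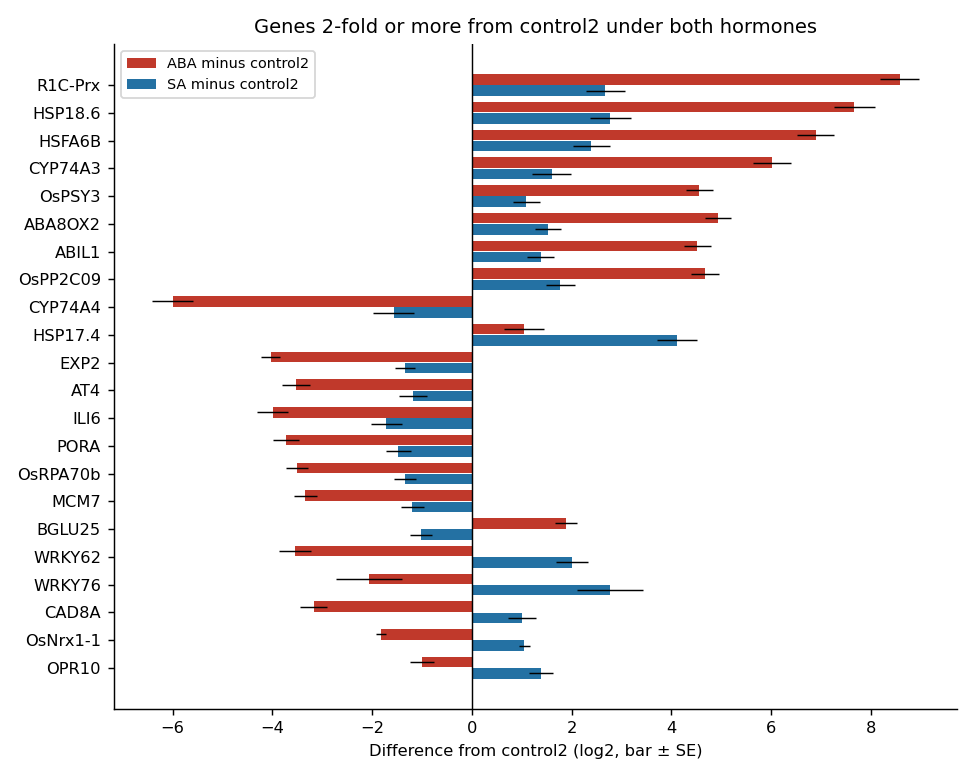
Difference from control2 in log2 units for named genes that lay 2-fold or more from control2 under both hormones, with ABA minus control2 in red and SA minus control2 in blue, and lines of 1 SE. HSP17.4 has the longer SA bar, at 4.12 against 1.05 for ABA, BGLU25 has ABA to the right and SA to the left of 0, and WRKY62, WRKY76, CAD8A, OsNrx1-1 and OPR10 have ABA to the left and SA to the right of 0.

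Response regulators of the A type, which report on cytokinin signalling, included genes lower than water under both hormones. RR2 had 4.73 and 4.62 in ABA, 5.90 and 7.21 in SA and 8.23 and 8.65 in control2. ABA stood below SA and SA below water, and the difference of -1.88 ± 0.33 was -1.23 without SA replicate 2. RR6 (LOC4337372) had 10.25 and 9.97 in ABA, 9.90 and 10.26 in SA and 11.13 and 11.25 in control2. The hormone groups of RR6 overlapped, both stood below water by about 1 unit, and the direct difference was 0.04 ± 0.17 (adjusted p = 0.895). RR4, in contrast, was lower in SA than in ABA, with 9.56 and 9.27 in ABA, 7.58 and 8.74 in SA and 10.13 and 10.55 in control2. Its difference of 1.25 ± 0.30 was 0.67 without SA replicate 1, and its call was lost with only the ABA and SA arrays in the fit (adjusted p = 0.0735). Of the 6 regulators tested, 1 was higher and 2 lower in ABA, with 1 called lower without either ABA array or without SA replicate 2. With control1 in place of control2, neither hormone lay apart for RR6 and SA did not for RR2.

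Growth genes that were called were more often lower than higher in ABA. Of 23 tested expansins, which loosen cell walls, 11 were lower and 3 higher in ABA, with a median of -0.52, and 9 to 11 lower calls were made when an array was left out. EXP8 had 6.17 and 5.01 in ABA, 8.65 and 8.72 in SA and 9.08 and 8.73 in control2, a difference of -3.09 ± 0.29 made by ABA. EXP2 had 6.87 and 7.11 in ABA, 9.44 and 9.93 in SA and 10.90 and 11.15 in control2. Both hormones lowered it against water, ABA by -4.04 and SA by -1.34, and the direct difference was -2.69 ± 0.19. With control1 in place of control2, SA did not lie apart for EXP2. EXPL2, an expansin-like gene, went the other way, with 9.22 and 9.47 in ABA, 6.08 and 6.07 in SA and 6.04 and 6.14 in control2. Of 58 genes of the cell cycle and DNA replication 19 were lower and 4 higher in ABA, with a median of -0.19. The called share was 39.7%, near the 36.5% of all probe sets. MCM7 (LOC4352514), a subunit of the helicase that opens DNA for replication, had 6.16 and 6.55 in ABA, 8.23 and 8.76 in SA and 9.66 and 9.72 in control2. The groups stood in that order with no overlap, ABA below water by -3.34 and SA by -1.19, the SA call being lost without SA replicate 1 or control2 replicate 2. OsMCM6 and MCM4 differed between the hormones by -2.09 ± 0.16 and -1.87 ± 0.18. Of 39 cell wall synthases and glucanases 14 were lower and 5 higher in ABA, with 9 lower calls made without ABA replicate 2. CSLA5, a mannan synthase by family, had 13.95 and 14.18 in ABA, 9.64 and 9.42 in SA and 9.18 and 9.22 in control2. The glucanase GLU14 had 3.10 in both ABA arrays, 6.50 and 7.35 in SA and 7.67 and 6.95 in control2, so that ABA had brought it to the bottom of the scale. Of 25 ribosomal proteins 11 were lower in ABA, none by 2-fold, and 3 to 7 of these calls were made when an array was left out.

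Transcripts of chlorophyll breakdown genes were higher in ABA, and those of chlorophyll synthesis genes were lower where called. Chlorophyll itself was not measured here. All 4 tested genes of chlorophyll breakdown and senescence were higher, with a median of 2.18, and ABA alone lay apart from water. NYC1, a chlorophyll b reductase, had 10.98 and 11.44 in ABA, 7.76 and 8.16 in SA and 7.69 and 8.08 in control2. SGR, the stay-green gene that takes magnesium from chlorophyll, had 13.26 and 13.63 in ABA, 10.76 and 10.58 in SA and 10.13 in both control2 arrays. They differed by 3.25 ± 0.30 and 2.77 ± 0.18, and NOL and RCCR1 by 1.59 ± 0.24 and 1.44 ± 0.18. Of 7 tested genes of chlorophyll synthesis 4 were lower in ABA, with 2 to 3 of these calls made when an array was left out. PORA, a protochlorophyllide reductase, had 8.72 and 8.29 in ABA, 10.53 and 10.99 in SA and 11.91 and 12.56 in control2. The groups did not overlap, and the difference was -2.25 ± 0.25 (adjusted p = 2.93e-05). Of 9 light-harvesting and photosystem genes 3 were lower in ABA, none by 2-fold, and 1 to 3 calls were made when an array was left out. With all arrays, 33.3% of these 9 genes were called, near the 36.5% of all probe sets. Summed on the linear scale, the 9 genes gave 163400 and 165900 in ABA, 192100 and 211700 in SA and 216100 and 257100 in control2. The groups of this shoot sum did not overlap, and its part in the differences above was not tested.

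Uptake genes of the root were lower in ABA than in SA where they differed strongly. Of 16 root-associated transporters 5 were lower and 1 higher in ABA, and 3 to 5 of the lower calls were made when an array was left out. With all arrays, 37.5% of this list was called, near the 36.5% of all probe sets. Lsi2 (LOC4331328), the silicon efflux transporter of roots, had 6.17 and 4.22 in ABA, 9.71 and 11.40 in SA and 12.61 and 12.34 in control2. The ABA and the SA pairs were spread, but ABA lay below SA and SA below water, and the direct difference was -5.36 ± 0.59 (adjusted p = 2.33e-05). ABA alone was called apart from control2, and likewise from control1, so the step from water to SA was not called with all arrays. It depended on single arrays, since SA too lay apart from control2 without either ABA array or without SA replicate 2. IRT1, an iron transporter, had 5.53 and 5.76 in ABA, 7.87 and 8.52 in SA and 8.77 and 8.23 in control2. NRAMP5, a manganese and cadmium transporter, differed by -1.84 ± 0.24. The silicon channel Lsi1 differed by -1.15 ± 0.33, a value of -1.89 without SA replicate 1 and -0.41 without SA replicate 2, and its call was lost without either ABA array (adjusted p = 0.0843 without replicate 1 and 0.0564 without replicate 2) and without SA replicate 2 (0.0878). The zinc transporter ZIP3 (LOC4336971), of another list, had 3.34 and 3.89 in ABA, 9.22 and 8.51 in SA and 9.04 and 8.25 in control2. SA was at the level of water there, and the difference was -5.25 ± 0.34 (adjusted p = 3.18e-07). Summed on the linear scale, the 16 transporters gave 63230 and 59790 in ABA, 68160 and 77460 in SA and 96540 and 88380 in control2. This root sum stood in the same order as the shoot sum, and its part in the differences was not tested.

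Sugar transporters were more often higher in ABA, and sugar metabolism was divided. Of 15 tested sugar transporters 7 were higher and 2 lower in ABA, with a median of 0.67, the higher ones led by SWEET15. SWEET12 had 6.35 and 7.03 in ABA, 2.26 and 2.32 in SA and 2.27 and 2.30 in control2, and SWEET1B differed by 3.16 ± 0.22. Both were higher in ABA alone, whereas SWEET14 was the one raised by SA. Of 23 genes of sugar and starch metabolism 6 were higher and 6 lower in ABA. SUS4, a sucrose synthase, had 14.48 and 14.65 in ABA, 11.71 and 12.08 in SA and 11.37 and 11.56 in control2, a difference of 2.67 ± 0.17. The cell wall invertase CIN2 had 4.33 and 4.18 in ABA, 6.31 and 6.96 in SA and 6.93 and 7.09 in control2, a difference of -2.38 ± 0.28. TPP1, which makes trehalose, was also lower in ABA, by -3.11 ± 0.28. P5CS2, an enzyme of proline synthesis, was higher in ABA by 2.57 ± 0.21.

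Aux/IAA repressors were more often lower and genes of the CIPK and CDPK kinase list more often higher in ABA. Of 25 Aux/IAA repressors 11 were lower and 3 higher in ABA, with 7 to 9 lower calls made when an array was left out. IAA23 had 7.12 and 6.90 in ABA, 9.25 and 8.90 in SA and 8.94 and 8.70 in control2, and differed by -2.07 ± 0.20. Auxin response factors were called at 37.5% with all arrays, near the 36.5% of all probe sets. Of 16 auxin response factors 5 were higher and 1 lower in ABA, with 3 higher calls made when any 1 array was left out. Of 45 genes of the CIPK and CDPK kinase list 18 were higher and 8 lower in ABA, and 14 to 15 higher calls were made when an array was left out. The list is not of kinases alone, as it also holds the calcium sensor CBL4. CIPK12 had 6.39 and 7.04 in ABA, 2.83 and 2.79 in SA and 2.88 and 2.61 in control2, a difference of 3.90 ± 0.23. Of 22 Casparian strip-like membrane proteins 10 were higher and 9 lower in ABA. OsCASPL5C1 had 10.00 and 10.29 in ABA, 6.50 and 6.12 in SA and 6.20 and 6.37 in control2. OsCASPL1U3, at the other end, had 10.46 and 10.02 in ABA, 12.93 and 13.02 in SA and 12.65 and 12.17 in control2.

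**Figure D5:**
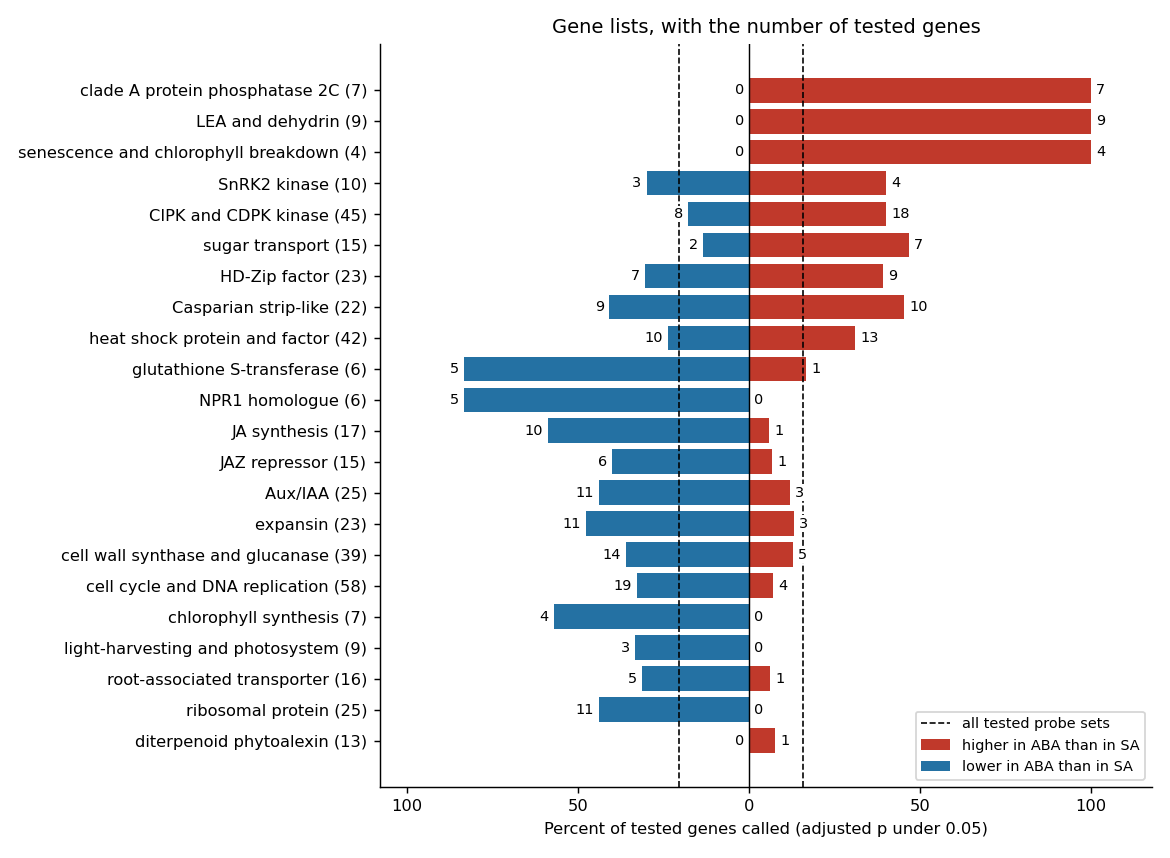
Percent of the tested genes that were higher in ABA (red, to the right) or lower in ABA (blue, to the left) than in SA, for a selection from the 67 gene lists. The number of genes is at each bar's end and the number tested is in brackets. Lists left out include some called less often than all probe sets and some called more often. The dashed lines mark the shares over all tested probe sets, 15.9% higher and 20.6% lower.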

How the data were processed

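RNA of rice seedlings was measured on 16 Affymetrix rice arrays in 8 groups of 2. The deposited values are log2 expression values per probe set, made by the authors with GCRMA (background correction, quantile normalization and summary of probes), per the submitters' processing notes; the version is not given in the sources used here, and the log base was taken from the values. Of 57381 probe sets, 123 AFFX and 64 RPTR probe sets were left out, and 24100 above log2 5 in at least 2 arrays were tested. Probe sets were named through GEO's platform annotation and RefSeq symbols (ASM3414082v1): 22436 of 57194 rice probe sets had 1 gene, 95 several and 34663 none, and none was named from several.

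In limma 3.58.1 (R 4.3.3) 1 model with 8 group means was fitted to all 16 arrays (lmFit, eBayes with a trend), and ABA minus SA was taken from it with control2 as description. Every adjusted p in the text is limma's two-sided moderated test, Benjamini-Hochberg adjusted over the 24100 probe sets (over 57194 without the filter), with a threshold of 0.05; errors of differences are its SE. Each group had 2 arrays, so the number of arrays limits the precision. In gene lists a gene was read by its probe set with the highest mean over the 16 arrays. Among probe sets with 1 named gene, those named were the 15 largest called differences each way (2-fold or more, arrays not overlapping, higher mean above log2 7), up to 5 largest per gene list and up to 8 per class, so named members are not a random draw. The comparison and the lists were chosen with earlier results of these data known. On simulated data of 24100 probe sets, 62 of 100 changed 2-fold and 88 of 100 changed 4-fold were recovered, with 7 false calls. Only 200 probe sets were changed there, whereas 8804 were called between ABA and SA. The adjustment depends on that share, so these rates need not hold for the comparison. Alternatives covered the scaling, filter, model, threshold, control set, replicate block and leaving out each array.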

Additional observations from a re-analysis of the deposited data

How the results depend on the processing

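The direct comparison called 8804 probe sets, 3831 higher and 4973 lower in ABA. Quantile normalization gave 8916, median centring 8787, no filter 7890, pooled control sets 6888, only the ABA and SA arrays 8143 and array weights 10183. A 2-fold minimum gave 3940 (1978 higher, 1962 lower), and an adjusted p under 0.01 gave 5850, 3045 of them lower. Leaving out 1 array gave 5813 to 7172 in all, 2794 to 3325 higher and 3019 to 3979 lower, the lowest total and lower count being without ABA replicate 2. Same-numbered ABA and SA arrays had a residual correlation of 0.13, control2 and SA 0.31, and control2 and ABA 0.06. All 6 pairs among control2, ACC, SA and JA were above 0.1, while all pairs of groups ran from -0.19 to 0.45. The labels tie the numbers to no shared batch, so they were not taken to pair the arrays. With the replicate number as a block 9065 were called (3946 higher, 5119 lower).

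Against control2, called probe sets split into 4177 with ABA alone apart, 266 with SA alone, 336 moved the same way, 47 in opposite ways and 3978 with neither. With control1 these were 3637, 529, 562, 90 and 3986. Leaving out 1 array, of which the ABA and SA ones were added after seeing the data, gave 3349 to 4273, 159 to 315, 148 to 329, 21 to 54 and 1944 to 3977.

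Of 2 genes with no call, AOX1 ranged from -0.60 without SA replicate 2 to 0.49 without SA replicate 1, with 0.00 without ABA replicate 2. RR6 ranged from -0.14 without SA replicate 1 to 0.21 without SA replicate 2, with -0.10 without ABA replicate 1. Among 283 called named probe sets, 32 to 48 lost their call when 1 array was left out. Each group had 2 arrays, and log2 values near the median of all probe sets carry little signal over background, so folds over such genes depend on the background correction.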
